A study of Mus musculus with 13 samples.

Results

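The genes of the mitochondrial ribosome were followed across 6 groups of mouse blastocysts in and out of embryonic diapause. Members were chosen by gene name alone: every gene named Mrpl or Mrps with a number, with or without a letter after it, and no pseudogene. The rule took 78 of the 31528 genes in the table, 49 with large subunit names (Mrpl) and 29 with small subunit names (Mrps), and all 78 passed the filter on low counts that 21808 genes passed. Names and structures differ for 3 of them. The products of Mrps30 and Mrps18a lie in the large subunit of the mammalian particle, and that of Mrps36 is a subunit of the alpha-ketoglutarate dehydrogenase complex, so structure gives 51 large, 26 small and 1 neither.

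Mitochondrial ribosomes translate the few messages that mitochondrial DNA encodes, all for membrane subunits of the respiratory chain and ATP synthase. Their rRNAs, mt-Rnr1 and mt-Rnr2, come from mitochondrial DNA, while all their proteins are encoded in the nucleus, made in the cytosol and imported. Many of these proteins have bacterial counterparts and others were added in the mitochondrial lineage. A blastocyst carries mitochondria inherited from the egg, and diapause is the arrest of the blastocyst before implantation.

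All 13 libraries came from whole blastocysts of the B6D2F1 background, a mix of C57BL/6 and DBA2J. The reference was embryonic day 4.5 under a normal diet (E4.5, n = 2), and the other 5 groups were of day 5.5. They were ovariectomy, the hormonal route to diapause (OVX, n = 2), starvation (n = 2), culture in KSOM medium made without protein or carbohydrate (depleted KSOM, n = 2), culture in KSOM with lower arginine, leucine, isoleucine, lysine, glucose and lactate (reduced KSOM, n = 3), and ovariectomy with guides sgNprl2 and sgTsc2 (targeted OVX, n = 2). The first 5 groups are labelled WT and the last Nprl2 and Tsc2 knockout. Both targeted genes restrain mTORC1, the kinase complex that couples growth to nutrients. Embryonic age and treatment cannot be told apart in any comparison with E4.5, and neither can culture and nutrient lack, since no group is labelled as cultured in complete KSOM. The labels do not say whether replicates came from separate mothers or cultures, so a p-value speaks only to how much these libraries vary, and that may be technical. No group is labelled as ovariectomy with a control guide. In comparisons of targeted OVX, the loss of the targeted genes and the delivery of guides therefore cannot be told apart. In whole embryos, fewer cells of a type and less RNA per cell cannot be told apart.

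Total counts ran from 40678386 to 72125687 per library, and scaling factors (TMM, trimmed means of M values) from 0.671 to 1.414. Nprl2 stood at 13.9 and 28.6 CPM (counts scaled to library size) in targeted OVX against 38.0 and 36.5 in OVX and 11.9 and 18.5 in E4.5, and Tsc2 at 14.7 and 8.26 against 23.3 and 14.1 and 16.95 and 14.4; an RNA level does not read the edit itself. Blastocyst markers were present in every library, with summed CPM of 3296 to 20032 for 7 trophectoderm genes, 82.8 to 388 for 5 inner cell mass genes and 32.2 to 271 for 4 primitive endoderm genes. Of these 16 genes none was at 0 in any library. OVX replicate 1 and the 3 reduced KSOM libraries stood apart. The 11 of 13 skeletal muscle markers that stayed under 5 CPM in E4.5 summed to 935 CPM in that OVX library and to 691 to 1075 CPM in reduced KSOM, and the other 9 libraries did not exceed 5.57 CPM. The 8 neutrophil markers summed to 600.3 and 132 CPM in OVX, 1295 to 1792 CPM in reduced KSOM and 0.5 to 32.9 CPM elsewhere. Elane and Mpo were at 0 in 6 and 8 libraries. In OVX replicate 2 the sum came from S100a8 at 94.9 and S100a9 at 37.5 CPM, with Camp at 0.11 CPM and the rest at 0. In OVX replicate 1 Ngp, Retnlg and Camp also stood at 122.7, 50.2 and 36.9 CPM. The 5 erythroid markers summed to 379 CPM in depleted KSOM replicate 1 and 353 CPM in reduced KSOM replicate 3, against 0.1 to 83.7 CPM elsewhere. The 4 uterine epithelium markers summed to 112 to 391 CPM, mostly from Wfdc2, while Ltf and Lcn2 stood highest in reduced KSOM. Their part in the members' values was examined only by leaving out single libraries and by a fit that gives the muscle-carrying libraries a coefficient of their own. Medians of members in comparisons that use OVX are given below with and without replicate 1. All 3 reduced KSOM libraries carry these transcripts, so no reduced KSOM value stands without them, and shares of counts and subunit ratios are given only with them.

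The members lie on 17 chromosomes, with 11 on chromosome 11. In 29 of them (37.2%) a neighbouring gene starts in the opposite direction within 1000 bases, against 13.4% of 17781 protein-coding genes; Mrpl32 has Psma2, a proteasome subunit gene, as such a neighbour. In all, 36 members overlap another gene, 31 of them one on the other strand. RefSeq windows from 250 bases before to 50 after the gene start were found for 69 members (75 windows, GRCm38.p6) and searched on both strands. The GABPA motif CCGGAAG lay in 34.7% of member windows and 8.86% of all 32851 windows, the NRF1 motif in 17.3% and 4.6%, the YY1 motif AAGATGGC in 16% and 2.75%, and the E-box CACGTG in 9.33% and 7.15%. By gene rather than by window, the E-box lay in 7.25% of member genes and 8.09% of all genes. Mrpl2 has several windows, each with an E-box. The shares by gene were 37.7% and 9.93% for GABPA, 18.8% and 5.19% for NRF1 and 17.4% and 3.19% for YY1. CCGGAAG and AAGATGGC can share the letters AAG. Member windows were richer in G and C, with a median of 58.7% against 52.7%, and a match is a description of letters, not of binding.

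Of the 18 members called by the test in any comparison below, 17 had a window, and 6 held 1 of these motifs in the 150 bases before the start. That stretch is shorter than the windows above, and its share among all windows was not counted. In the full window Mrpl35, Mrps9, Mrps18c and Mrps33 had a match too. The stretches of 6 members are printed, 3 with a match and 3 without, for members with calls in targeted OVX or between the culture media; capitals mark NRF1 in Mrpl12 and GABPA in Mrps18a and Mrpl52, where it reads on the other strand in Mrpl52.
Mrpl12 (chr11:120484487-120484636, plus strand): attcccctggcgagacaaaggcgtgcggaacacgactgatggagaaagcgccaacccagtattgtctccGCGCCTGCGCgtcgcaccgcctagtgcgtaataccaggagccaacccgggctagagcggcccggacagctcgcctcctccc
Mrps18a (chr17:46110854-46111003, plus strand): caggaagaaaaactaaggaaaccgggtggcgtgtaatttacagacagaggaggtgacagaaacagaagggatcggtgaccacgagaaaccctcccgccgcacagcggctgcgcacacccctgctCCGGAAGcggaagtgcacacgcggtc
Mrpl52 (chr14:54426759-54426908, plus strand): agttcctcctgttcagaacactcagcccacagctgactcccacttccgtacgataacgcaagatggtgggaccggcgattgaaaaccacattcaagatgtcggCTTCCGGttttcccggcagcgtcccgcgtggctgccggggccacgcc
Mrpl35 (chr6:71823785-71823934, minus strand): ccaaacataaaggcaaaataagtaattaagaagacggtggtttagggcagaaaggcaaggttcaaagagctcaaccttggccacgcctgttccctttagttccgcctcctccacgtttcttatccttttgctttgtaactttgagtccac
Mrps14 (chr1:160195065-160195214, plus strand): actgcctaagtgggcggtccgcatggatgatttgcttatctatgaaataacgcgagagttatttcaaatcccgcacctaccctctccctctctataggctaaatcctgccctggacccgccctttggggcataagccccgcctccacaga
Mrps15 (chr4:126046778-126046927, plus strand): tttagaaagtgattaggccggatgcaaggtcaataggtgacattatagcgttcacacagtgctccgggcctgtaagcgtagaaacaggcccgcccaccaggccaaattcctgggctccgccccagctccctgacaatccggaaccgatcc
The first base of the match lies 81, 26 and 47 bases before the start in the first 3. Mrpl35 and Mrps14, which rose with Mrps18a in targeted OVX, hold none of the 4 motifs in the stretch, nor does Mrps15, which fell with Mrpl52 in depleted KSOM. Outside the printed stretch, the windows of Mrpl35 and Mrps18a each hold a YY1 match.

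Levels between members can be compared per transcript length, as FPKM (fragments scaled by transcript length and library size). The mean of the 6 group means ran from 4.45 FPKM for Mrps5 to 384 FPKM for Mrps21. The most abundant members were Mrps21 (ENSMUSG00000054312, chr3:95862634-95871519, minus strand, GRCm38), the counterpart of bacterial bS21, Mrpl54 at 313 FPKM, a large subunit protein with no bacterial counterpart, and Mrps18c at 279 FPKM, one of 3 bS18 paralogs. The other paralogs were lower, with Mrps18b at 87.9 and Mrps18a at 47.6 FPKM. The least abundant were Mrps5, a protein of the mRNA entry side, Mrps35 at 6.65 FPKM and Mrps9 at 6.79 FPKM. Mrpl12, the stalk protein that several translation factors contact and that also binds the mitochondrial RNA polymerase, ranked just below Mrps18c at 226 FPKM.

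Transcripts for proteins of the same particle thus differed widely in level. Longer transcripts had lower FPKM, a unit that divides by length: across the 78 genes Spearman's rho of FPKM with the longest annotated transcript was −0.73, a description across genes that share libraries. Members were short, with a median of 1867 bases against 2567 bases for all genes tested. The shortest, Mrps21 with 488 bases, had the highest FPKM, and the longest, Mrpl17 with 7300 bases, reached 17.8 FPKM.

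**Figure D1:**
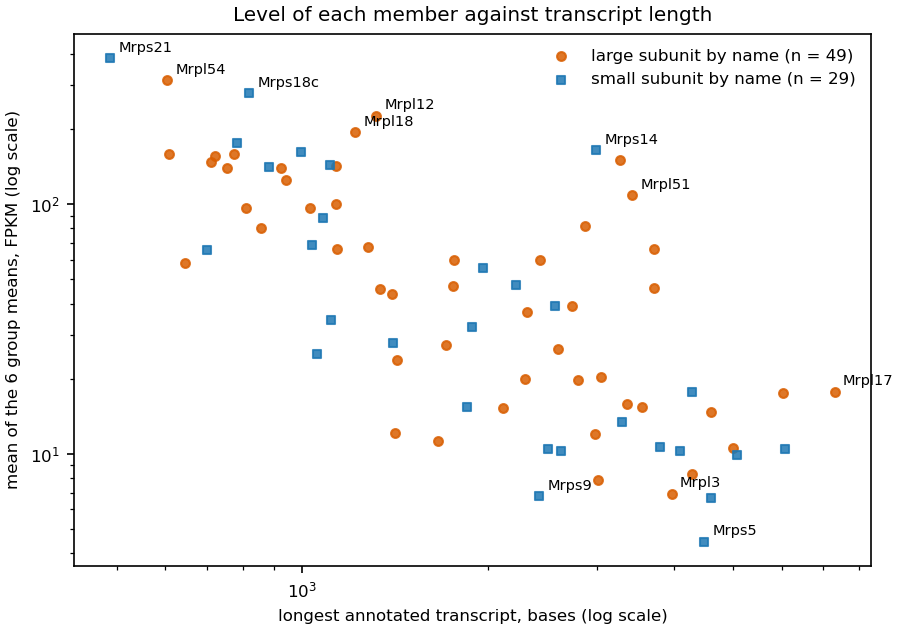
Each point is 1 of the 78 genes, with the longest annotated transcript in bases on a log x axis and the mean of the 6 group means in FPKM on a log y axis; circles are Mrpl and squares Mrps genes. Short members such as Mrps21 and Mrpl54 lie at the top and long members such as Mrps5 and Mrpl3 at the bottom, and both subunits spread over the whole range.

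Together the 78 genes took 1.34% and 1.18% of all counts in E4.5, 1.25% and 1.16% in OVX, 1.05% and 0.806% in starvation, 0.778% and 0.868% in depleted KSOM, 1.09%, 1.08% and 1.14% in reduced KSOM, and 1.53% in both targeted OVX libraries. Targeted OVX lay above every other library and both depleted KSOM libraries lay below all others but starvation replicate 2, which fell between them. Summed FPKM gave the same order of groups at both ends, with 7260 and 7751 in targeted OVX, 5865 and 6526 in E4.5, and 3842 and 4338 in depleted KSOM. These sums are led by a few abundant members and are shares of what else each library holds. The only group whose range overlapped that of E4.5 was OVX. Starvation and reduced KSOM also lay below both E4.5 libraries, with summed FPKM of 5008 and 3761 in starvation and 5411, 5328 and 5523 in reduced KSOM, although the median fold change of members in reduced KSOM was above 0 on the TMM scale.

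The rRNAs of the particle had another order of groups than its proteins. mt-Rnr1 and mt-Rnr2 together took 0.839% and 1.92% of counts in E4.5, 1.39% and 1.64% in starvation and 1.39% and 1.92% in depleted KSOM. In OVX they took 0.208% and 0.217%, in targeted OVX 0.152% and 0.241%, and in reduced KSOM 0.35% to 0.55%. For each 100 rRNA counts there were 61.4 and 160.1 Mrp counts in E4.5 and 45.2 and 55.9 in depleted KSOM, but 533 and 600.2 in OVX and 634 and 1010 in targeted OVX. By edgeR's quasi-likelihood test, mt-Rnr1 was lower than in E4.5 in OVX (log2 fold change −2.69 ± 0.53, estimate ± approximate SE, adjusted p = 0.0242) and in targeted OVX (−3.01 ± 0.54, adjusted p = 0.014). In targeted OVX mt-Rnr2 was lower too (−1.90 ± 0.45, adjusted p = 0.0459). mt-Rnr1 was also lower in reduced than in depleted KSOM (−2.35 ± 0.45, adjusted p = 0.0165). Without E4.5 replicate 2, which had the higher rRNA share, the adjusted p of mt-Rnr1 was 0.135 in OVX and 0.0723 in targeted OVX, and that of mt-Rnr2 was 0.325. The OVX call kept an adjusted p of 0.0445 without OVX replicate 1 and was lost without replicate 2 (0.0531), and mt-Rnr2 was not called without either targeted OVX library (0.126 and 0.0923). Between the media the call was held only without depleted KSOM replicate 1 (0.0349), with 0.059 to 0.0752 without any other library and 0.434 with the muscle coefficient. How much of each rRNA the amplification captured is not given in the sources used here.

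**Figure D2:**
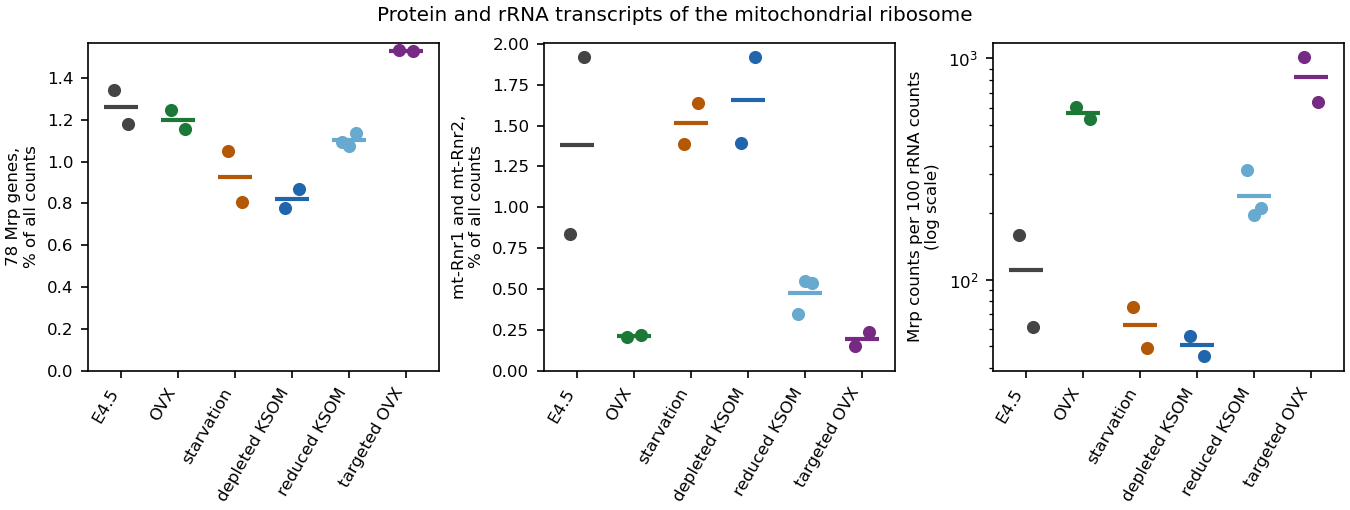
Left and middle, the percentage of all counts on the 78 Mrp genes and on the 2 mitochondrial rRNA genes; right, Mrp counts per 100 rRNA counts on a log axis. Points are libraries, bars group means; targeted OVX sits at 1.53% in the left panel, and OVX and targeted OVX lie lowest in the middle and highest in the right panel.

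The large subunit genes held more counts than the small subunit genes in every library. The sets hold 49 and 29 genes, so their sums do not compare levels per gene. The ratio of summed FPKM, large over small, was 2.05 and 2.26 in E4.5, 1.81 and 2.02 in starvation, 1.82 and 1.84 in depleted KSOM, 1.32 and 1.87 in OVX, 1.52 to 1.71 in reduced KSOM and 1.48 and 1.53 in targeted OVX. Both E4.5 libraries lay above all 11 others in this ratio, which abundant members lead. The median log2 CPM of large minus that of small subunit genes gave another order. Its group means were 0.39 in E4.5, 0.62 in OVX and 0.65 in reduced KSOM. In starvation, depleted KSOM and targeted OVX they were 0.44, 0.32 and 0.38. The median log2 fold changes of the 2 subunits were 0.80 for large and 0.69 for small subunit genes in targeted OVX against E4.5, 0.39 and 0.21 in OVX, −0.20 and −0.31 in starvation, −0.33 and −0.27 in depleted KSOM, and 0.25 for both in reduced KSOM. Of these gaps, all were under the spread between replicates, whose pooled SD was 0.172 for the large minus small median, except for the gap of 0.18 in OVX. The gap in starvation was 0.24 to 0.30 in all 4 fits that left out 1 library, above that SD.

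Fold changes below are edgeR log2 fold changes on the TMM scale, and a gene is called where its p, adjusted by Benjamini-Hochberg over all 21808 genes, is under 0.05. The scale sets the zero point. With library totals in place of TMM, the median of all genes moved from 0 to −0.53 in OVX, from 0.15 to −0.50 in reduced KSOM and from −0.16 to −0.92 in targeted OVX, each against E4.5. The members' median moved with it, so it is given beside that of all genes.

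**Figure D3:**
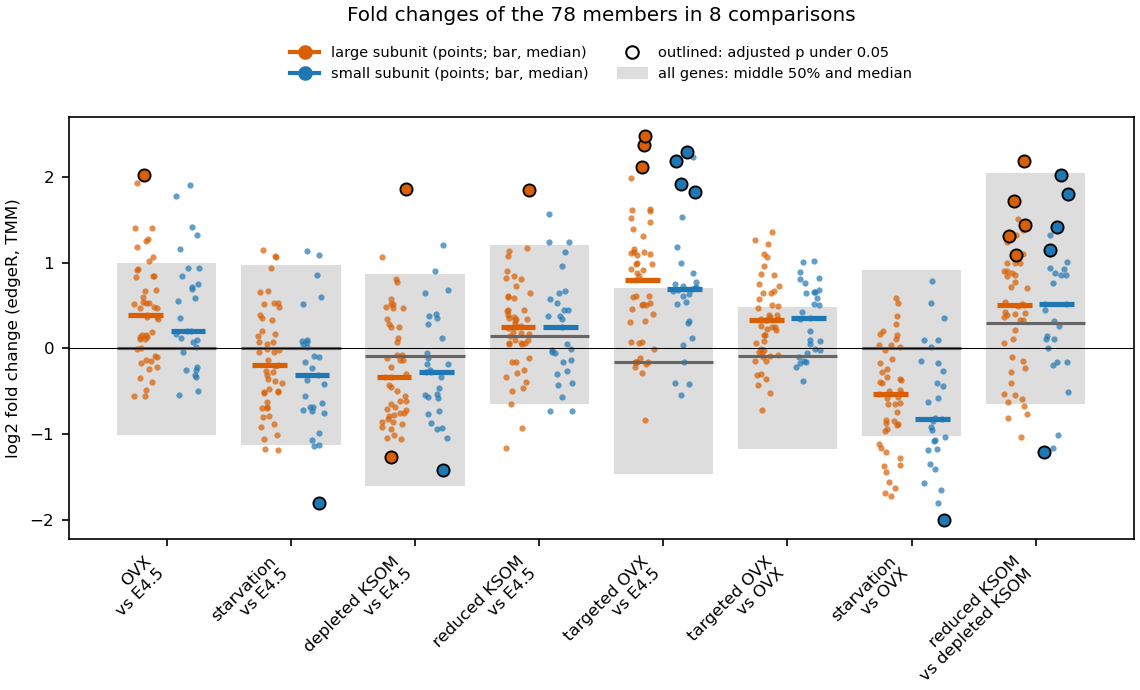
Log2 fold change (TMM scale, y axis) of each large (orange) and small (blue) subunit gene in the 8 comparisons (x axis); bars are medians, outlined points have an adjusted p under 0.05, and the grey box spans the middle 50% of all genes with their median as a line. Members of targeted OVX against E4.5 lie highest, at a median of 0.70 that becomes −0.04 with library totals, where all genes stand at −0.92.

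Blastocysts targeted for Nprl2 and Tsc2, with ovariectomy, had 7 called members against E4.5, the highest count of the 5 groups in this fit. It was not the highest under every setting: library totals gave 3 against 5 in depleted KSOM, and fits of only 2 groups gave 0 against 9 in reduced and 8 in depleted KSOM. Of the 78 members, 7 rose and 0 fell, against 1.68% and 0.986% of all genes, and 35 were higher at an unadjusted p under 0.05 (8.49% of all genes) with 0 lower (9.13%). The median was 0.70 against −0.16 for all genes by TMM, 0.73 against −0.13 by median-of-ratios scaling, and −0.04 against −0.92 by library totals, where the sign of the members' own median turned. Between targeted OVX and E4.5, all libraries of the first group lay above those of the second in 57 members (19.3% of all genes) and below them in 4 (29.6%). The marker sums of blastocyst cell types, in CPM by library totals, were lower in targeted OVX than in E4.5. Those of trophectoderm were 3296 and 5039 against 6305 and 9632 CPM. Those of inner cell mass were 185 and 93.4 against 388 and 364 CPM, and those of primitive endoderm 50.4 and 54.0 against 271 and 192 CPM. The trophectoderm sums came mostly from Krt8 and Krt18. Eomes stood at 66.9 and 133.6 against 34.5 and 87.3 CPM, and Elf5 at 35.7 and 41.8 against 11.9 and 40.1 CPM. Tfap2c and Tdgf1 overlapped between the groups too. The other markers of these lists were lower in both targeted OVX libraries. The TMM factors were 0.764 and 0.872 in targeted OVX against 1.344 and 1.414 in E4.5. On the TMM scale the gaps in the sums would be narrower, and the trophectoderm sums would overlap. The part of these markers in the members' values was not tested.

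The 7 called genes sit in both subunits. Mrpl35 (ENSMUSG00000052962, chr6:71812997-71823810, minus strand), counterpart of bacterial bL35, stood at 625 and 536 CPM in targeted OVX against 124 and 84.5 CPM in E4.5. That is 5.56-fold (log2 2.48 ± 0.40 SE, adjusted p = 0.00906), and no other library exceeded 329.5 CPM. Mrps18a (ENSMUSG00000023967, chr17:46110986-46128910, plus strand), the bS18 paralog placed in the large subunit, reached 597 and 451 CPM against 129 and 101, a 4.55-fold rise (log2 2.19 ± 0.35, adjusted p = 0.00906). Both of its targeted OVX libraries lay above all 11 others.

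Mrps14 (ENSMUSG00000058267, chr1:160195215-160202170, plus strand), a head protein of the small subunit, stood at 1453 and 1185 CPM against 282 and 257 (log2 2.29 ± 0.48, adjusted p = 0.028). The OVX libraries differed from each other, at 1422 and 422 CPM, and replicate 1 lay between the targeted OVX libraries. Mrpl46, a large subunit protein without a bacterial counterpart, rose from 89.3 and 91.9 to 378 and 409.6 CPM (log2 2.12 ± 0.42, adjusted p = 0.0235). Its gene overlaps Mrps11 head to head over 413 bases, and reads from the 2 cannot be told apart there, because the library preparation is not stated to keep strand; Mrps11 itself had a log2 fold change of 0.64 (adjusted p = 0.356). Mrps28 went from 104 and 94.2 to 339.8 and 359 CPM (adjusted p = 0.0231).

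Mrpl32, a protein whose maturation by the m-AAA protease gates ribosome assembly, was the one member called in 3 comparisons with E4.5. It stood at 15.5 and 14.5 CPM in E4.5, 70.6 and 51.2 in OVX, 35.7 and 73.1 in depleted KSOM and 48.9 and 106 in targeted OVX. The adjusted p was 0.0483, 0.0377 and 0.0245, with log2 fold changes of 2.02 ± 0.47, 1.86 ± 0.47 and 2.37 ± 0.48. E4.5 was the lowest group, with starvation at 23.5 and 42.8 and reduced KSOM at 23.3, 29.6 and 26.8 CPM above it without overlap. The 3 comparisons share the E4.5 libraries. Mrps33, outside the naming rule and named after its values were seen, completed the 7, at 668 and 587 CPM against 212 and 120.3 (adjusted p = 0.0448).

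**Figure D4:**
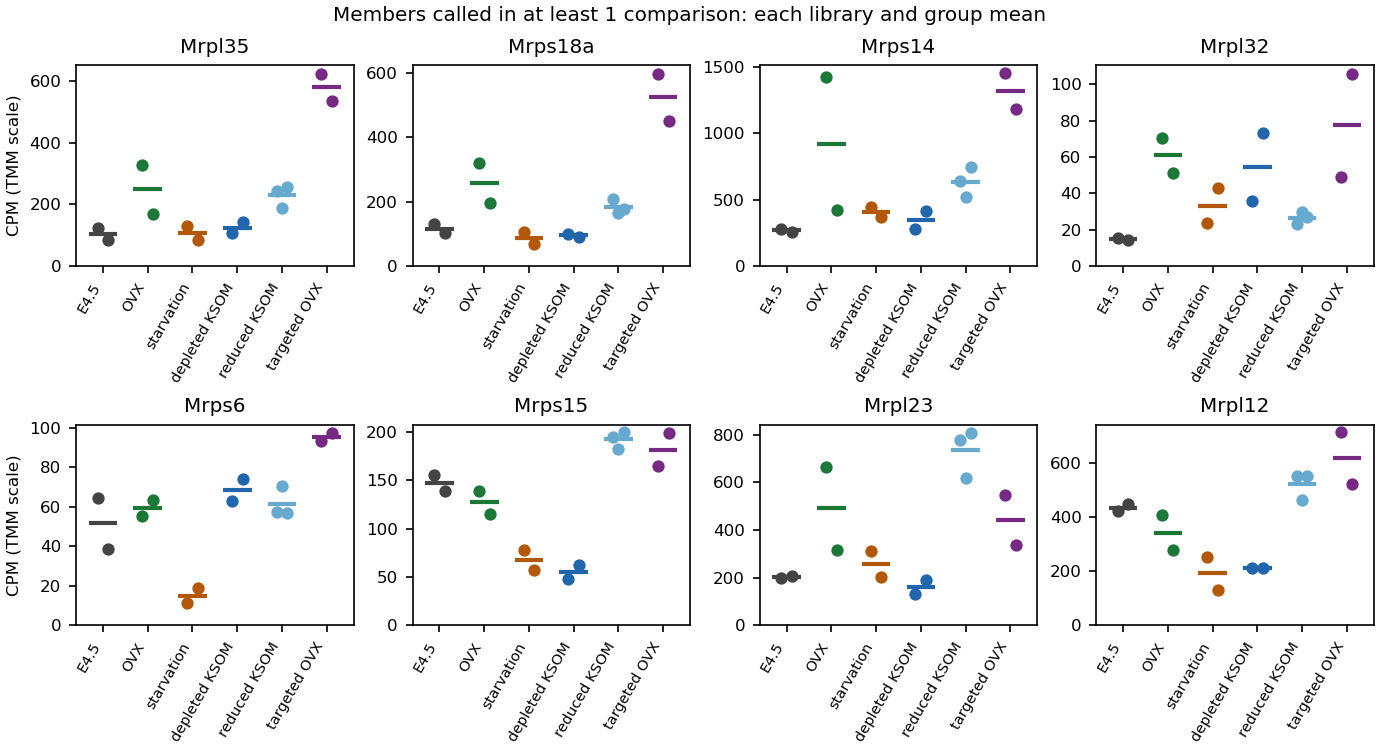
CPM on the TMM scale (y axes from 0) of 8 called members in each library (points) and the group mean (bars), by group. Targeted OVX is highest for Mrpl35, Mrps18a and Mrpl32, starvation is lowest for Mrps6, and depleted KSOM is lowest for Mrps15 and Mrpl23.

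Without E4.5 replicate 2 none of the 78 members was called (Mrpl35 then had an adjusted p of 0.088 and Mrps18a of 0.0969), without E4.5 replicate 1 there were 2, without targeted OVX replicate 2 there were 3 and without targeted OVX replicate 1 there were 6. The fit of E4.5 and targeted OVX alone called 0 members and 0 of all genes. Library totals gave 3 members, or 3.85%, against 3.5% of all genes called in either direction. DESeq2 called 29 members, or 37.2%, all higher, where it called 9.08% of the genes it tested as higher.

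Within functional centres, values in targeted OVX against E4.5 were mixed. Around the stalk, Mrpl12 had a log2 fold change of 0.51, Mrpl11, its base, 0.61, and Mrpl10, which anchors it, −0.84, the lowest of all members. At the exit tunnel Mrpl22 was at 1.39 (adjusted p = 0.0534), Mrpl23 at 1.12, Mrpl24 at −0.16 and the membrane anchor Mrpl45 at 0.93. None of these passed the test. Mrpl3 and Mrpl2, near the peptidyl transferase centre, were at 0.91 and −0.15, and Mrpl4 and Mrpl44 at −0.11 and −0.15. Mrpl58, a peptidyl-tRNA hydrolase built into the large subunit that frees stalled chains, was at 1.52 (adjusted p = 0.0821). In the small subunit the decoding centre protein Mrps12 was at 0.78, Mrps5 at 0.04, Mrps7 at 0.52, Mrps22 at 0.99, Mrps15 at 0.30 and the pentatricopeptide repeat protein Mrps27 at 0.12. The paralogs Mrps18c and Mrps18b were at 2.23 (adjusted p = 0.0557) and 0.61, Mrps30 at 0.71 and Mrps36 at 0.75.

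Against untargeted OVX no member was called in targeted OVX. Of 78 members 0 rose and 0 fell by edgeR, where 0.00459% and 0.0321% of all genes were called, 14 were higher at an unadjusted p under 0.05 (3.13% of all genes) and 0 lower (7.74%), and DESeq2 called 7 higher (8.97% of members, against 2% of all genes it tested). The median was 0.33 against −0.09 for all genes, 0.36 by median-of-ratios scaling and 0.19 by library totals. Here all libraries of the first group lay above those of the second in 25 members (12.8% of all genes) and below them in 2 (19.1%). Mrpl20, a large subunit counterpart of bL20, Mrpl30 and Mrpl35 had the highest values, at log2 1.36 ± 0.38, 1.26 ± 0.41 and 1.22 ± 0.38 (adjusted p = 0.234, 0.291 and 0.273), and Mrpl14 the lowest at −0.71 ± 0.46. Without OVX replicate 1, which carries muscle transcripts, the median was 0.59 and 1 member was called; without OVX replicate 2 it was 0.21 with 0 called.

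In OVX 1 member, Mrpl32, rose against E4.5 and 0 fell (1.56% and 0.481% of all genes). At an unadjusted p under 0.05, 20 were higher (9.82% of all genes) and 0 lower (5.93%). The median was 0.37 against 0 by TMM, 0.35 against 0 by median-of-ratios scaling and −0.21 against −0.53 by library totals, where its sign turned. Between OVX and E4.5, all libraries of the first group lay above those of the second in 34 members (21.3% of all genes) and below them in 6 (24.9%). The next highest values were Mrpl33 at log2 1.94 ± 0.47 (adjusted p = 0.055) and Mrps21 at 1.91 ± 0.52 (adjusted p = 0.0803), and the lowest Mrpl15, Mrpl43 and Mrps27 at −0.55, −0.55 and −0.54. The OVX libraries disagreed on many members: Mrps21 stood at 970.3 and 272 CPM and Mrps18c at 745 and 163 CPM, with replicate 1 high in both. Without replicate 1 the median was 0.21 with 0 members called, and without replicate 2 it was 0.44 with 13 called; leaving out either E4.5 library gave 0 called.

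In starvation 1 member fell against E4.5 and 0 rose (0.532% and 1.68% of all genes), while at an unadjusted p under 0.05 there were 14 lower (7.43% of all genes) and 6 higher (9.35%). The member was Mrps6 (ENSMUSG00000039680, chr16:92058270-92112227, plus strand), counterpart of bacterial bS6 on the platform of the small subunit. It stood at 11.1 and 18.7 CPM in starvation against 64.7 and 38.8 in E4.5 and 55.3 and 63.6 in OVX. Both starvation libraries lay below all 11 others, and the level was 3.48-fold lower than in E4.5 (log2 −1.80 ± 0.36, adjusted p = 0.0245) and 3.997-fold lower than in OVX (−1.999 ± 0.36, adjusted p = 0.0491). Slc5a3, a myo-inositol transporter gene, overlaps Mrps6 on the same strand over 29152 bases, with a mean count of 279.5 against 3289 for Mrps6. The call against E4.5 was lost without E4.5 replicate 1 (adjusted p = 0.26) and without starvation replicate 1 (0.0585).

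The starvation median was −0.22 against 0 for all genes, −0.24 against 0 by median-of-ratios scaling, −0.47 against −0.17 by library totals and 0.03 against 0.07 with an offset for transcript length, where its sign turned. Between starvation and E4.5, all libraries of the first group lay above those of the second in 13 members (19.8% of all genes) and below them in 29 (24.7%). The median was −0.48 with 2 members called without starvation replicate 1, and −0.02 without replicate 2, where all genes stood at −0.13. Without E4.5 replicate 1 the count of called members was 0. After Mrps6 the lowest values were Mrpl12 at −1.18 ± 0.36 (adjusted p = 0.106) and Mrpl36, a small zinc-binding protein, at −1.17 ± 0.31 (adjusted p = 0.0733). The highest were Mrpl32 at 1.15 ± 0.46, Mrps30 at 1.14 ± 0.40 and Mrps18b at 1.09 ± 0.32 (adjusted p = 0.229, 0.162 and 0.102).

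Set against OVX, 1 member, Mrps6, fell in starvation by edgeR and 0 rose (0.147% and 0.078% of all genes called), and 30 were lower at an unadjusted p under 0.05 (8.31% of all genes) with 0 higher (6.65%). The median was −0.60 against 0, −0.60 by median-of-ratios scaling and −0.22 against 0.26 by library totals. In starvation against OVX, all libraries of the first group lay above those of the second in 3 members (16.5% of all genes) and below them in 34 (17.7%). Mrps21 and Mrpl42 came next to Mrps6, at −1.81 ± 0.52 and −1.72 ± 0.49 (adjusted p = 0.138 and 0.135). Mrps30, Mrpl50 and Mrpl4 were the highest, at 0.78, 0.59 and 0.54. Mrps6 kept its call without OVX replicate 2 and lost it without OVX replicate 1 or starvation replicate 1. Without OVX replicate 1 the members' median was −0.33 against 0 for all genes. It was −0.88 without OVX replicate 2, where the OVX library left is the one with muscle transcripts. Over the 4 fits that left out 1 library it stayed between −1.02 and −0.33.

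In depleted KSOM 2 members fell against E4.5, Mrps15 and Mrpl52, and 1 rose, Mrpl32 (2.21% and 3.29% of all genes). At an unadjusted p under 0.05, 15 were lower (10.9% of all genes) and 6 higher (10% of all genes). Mrps15 (ENSMUSG00000028861, chr4:126046925-126055532, plus strand), a counterpart of bacterial uS15, stood at 47.7 and 62.6 CPM against 156 and 139 (log2 −1.42 ± 0.30, adjusted p = 0.0163). Mrpl52, with no bacterial counterpart, stood at 38.9 and 61.9 CPM against 129 and 114 (log2 −1.27 ± 0.34, adjusted p = 0.0484). In both genes depleted KSOM and starvation lay below E4.5 without overlap, starvation at 78.2 and 57.0 and 66.96 and 53.4 CPM.

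The median was −0.32 against −0.09 for all genes, −0.38 against −0.16 by median-of-ratios scaling and −0.63 against −0.41 by library totals. Between depleted KSOM and E4.5, all libraries of the first group lay above those of the second in 18 members (24.5% of all genes) and below them in 37 (30.5%). Mrpl18 was the third lowest at −1.05 ± 0.35 (adjusted p = 0.104), and Mrpl12 was at 212 and 210.3 CPM against 422 and 448 (adjusted p = 0.114). Mrps30 and Mrpl1 were the highest after Mrpl32, at 1.21 ± 0.40 and 1.06 ± 0.46 (adjusted p = 0.102 and 0.21). Both falls lost their call without any 1 of the 4 libraries (adjusted p from 0.0714 to 0.39), and with a length offset, which removes a trend of abundance with transcript length in each library, the median was −0.02. Mrpl32 kept its call only without depleted KSOM replicate 1, with an adjusted p from 0.162 to 0.289 without either E4.5 library or depleted KSOM replicate 2.

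In reduced KSOM 1 member rose against E4.5, Mrpl23, and 0 fell (0.77% and 0.362% of all genes), with 10 higher (8.91% of all genes) and 4 lower (6.24%) at an unadjusted p under 0.05. Mrpl23 (ENSMUSG00000037772, chr7:142532686-142540747, plus strand), an exit tunnel protein, stood at 777, 619 and 809 CPM against 201 and 206 in E4.5 (log2 1.85 ± 0.39, adjusted p = 0.0444). OVX replicate 1, the other library with muscle transcripts, stood at 665.6 CPM, and replicate 2 at 316 CPM. The table also lists an Mrpl23 pseudogene, so its reads could be split. The median was 0.25 against 0.15 for all genes, 0.27 against 0.16 by median-of-ratios scaling and −0.43 against −0.50 by library totals, where its sign turned. Between reduced KSOM and E4.5, all libraries of the first group lay above those of the second in 39 members (24% of all genes) and below them in 13 (20.4%). Mrps18c and Mrps21 were the next highest at 1.57 ± 0.52 and 1.24 ± 0.48, and Mrpl43 was the lowest at −1.16 ± 0.30 (adjusted p = 0.0875). The call for Mrpl23 was lost without any 1 of the 5 libraries (adjusted p from 0.0991 to 0.23), and a fit with a term marking the 4 libraries that carry muscle genes left 0 members called and a median of −0.22 against 0.29; that term is set by the difference between the 2 OVX libraries.

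The 2 culture groups differed from each other in 10 called members in this fit, 12.8% of the 78, against 5.79% of all genes. Library totals gave 5, the same number as for depleted KSOM against E4.5, and the muscle coefficient left 0 members and 0 of all genes called. Reduced KSOM was higher than depleted KSOM in 9 called members and lower in 1 (2.99% and 2.8% of all genes), and at an unadjusted p under 0.05 in 30 higher (13.1% of all genes) and 6 lower (9.6%). Mrps15 was 3.49-fold higher, at 195, 183 and 200.2 CPM against 47.7 and 62.6 (log2 1.80 ± 0.28, adjusted p = 0.00865). Mrpl23 was 4.55-fold higher, against 131 and 192 CPM (adjusted p = 0.0143). Mrpl52, Mrps16, Mrps36 and Mrpl12 followed, at log2 1.44 ± 0.32, 1.41 ± 0.32, 1.15 ± 0.29 and 1.31 ± 0.33 (adjusted p = 0.0271, 0.0277, 0.0409 and 0.041). Mrpl12 stood at 553, 463 and 551 CPM against 212 and 210.3, and its neighbour in the stalk base, Mrpl11, at 76.4, 84.8 and 84.9 CPM against 42.6 and 34.3 (adjusted p = 0.0495). Mrps36 has pseudogenes in the table that could split its reads.

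The bS18 paralog Mrps18c was also called, at 517, 363 and 629 CPM against 115 and 132 (adjusted p = 0.0446), as was Mrpl51, named after its values were seen, at 742, 629 and 874 CPM against 208 and 246 (adjusted p = 0.0448). The one fall was Mrps9, counterpart of bacterial uS9, at 24.7, 23.6 and 24.8 CPM against 57.7 and 55.1 (log2 −1.21 ± 0.30, adjusted p = 0.0355); Mrps30 and Mrpl32 were the next lowest at −1.16 ± 0.35 and −1.03 ± 0.41. The median was 0.51 against 0.29 for all genes, 0.60 against 0.38 by median-of-ratios scaling and 0.15 against 0 by library totals. In reduced against depleted KSOM, all libraries of the first group lay above those of the second in 50 members (27.5% of all genes) and below them in 14 (20.8%). Shorter transcripts were higher in reduced KSOM across all genes, with a median of 0.83 for genes up to 1867 bases and 0.04 for longer ones; the members' medians were 0.50 and 0.52. With the length offset the median was −0.02 with 1 member higher and 4 lower, and the muscle term left 0 called, with Mrps18c at −0.17.

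Mrps15 lost its call in this comparison without depleted KSOM replicate 1 (adjusted p = 0.11) and kept it without each of the other 4 libraries. Mrpl23 lost it without depleted KSOM replicate 1 (0.125), reduced KSOM replicate 1 (0.0552) or reduced KSOM replicate 3 (0.0557). The other 8 lost it without any 1 of the 5 libraries. Across these fits 0 to 2 members were called: 0 without depleted KSOM replicate 1, 2 without depleted KSOM replicate 2 or reduced KSOM replicate 2, and 1 without reduced KSOM replicate 1 or 3.

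Across the 6 groups, targeted OVX had the highest mean of 44 of the 78 members on the TMM scale, whether by CPM or by log2 CPM, against 14.4% of all genes by log2 CPM. By library totals it was the highest in 26 and E4.5 in 32, and by FPKM in 27 and 29, against 4 for E4.5 on the TMM scale, so which group is highest depends on the scale. The lowest group depended on it less: depleted KSOM or starvation had the lowest mean in 55 members on the TMM scale (33 and 22), in 47 by library totals (31 and 16) and in 46 by FPKM (29 and 17). By log2 CPM on the TMM scale it was depleted KSOM in 31 members and starvation in 25, against 23.1% and 13.2% of all genes.

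Most members varied together over the 13 libraries. The correlation of a member's log2 CPM with the median of the other members had a median of 0.73, was over 0.5 for 54 genes and over 0.8 for 27, and was highest for Mrpl58 at 0.97. These are descriptions over libraries that share scaling and depth. For 10 members it was below 0. Mrpl10, the stalk anchor, was lowest at −0.75, with 65.8 and 80.0 CPM in depleted KSOM and 32.1 and 26.2 in targeted OVX, the reverse order of most members. Mrps2, counterpart of uS2, followed at −0.69 and Mrps35 at −0.54. Mrps30 at −0.39 had 136 and 83.2 CPM in depleted KSOM, 139.9 and 68.4 in starvation and 65.8 and 88.7 in targeted OVX against 44.9 and 49.8 in E4.5.

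**Figure D5:**
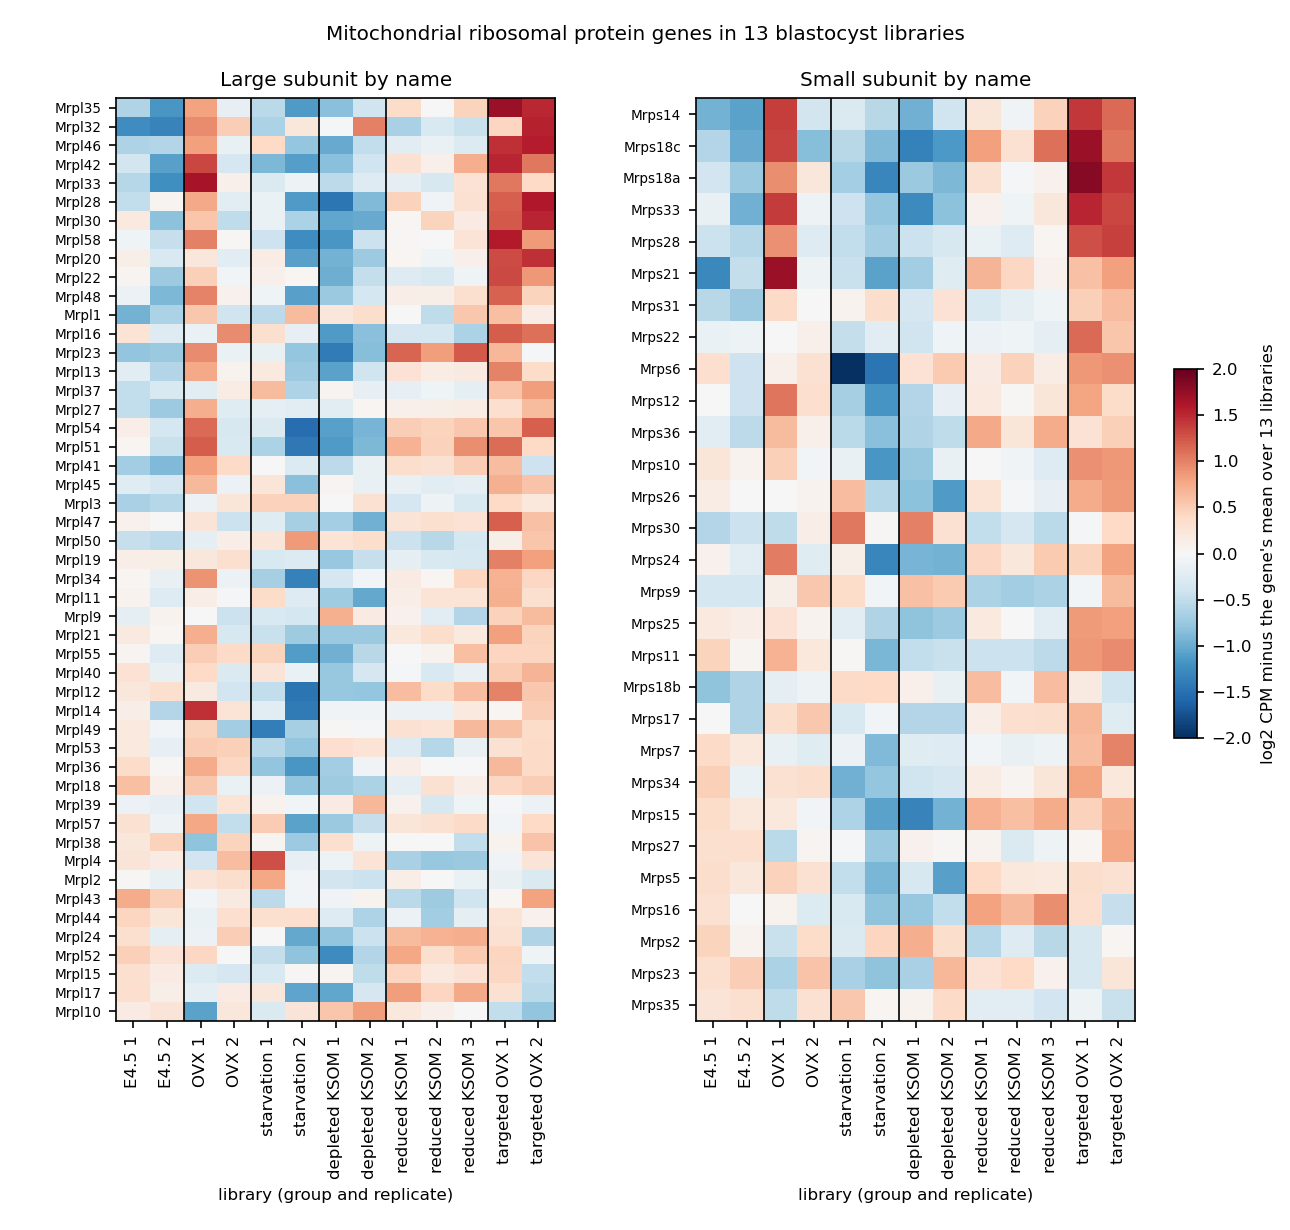
Each row is a member and each column a library; colour is log2 CPM (TMM scale) minus the gene's mean over the 13 libraries, from −2 (blue) to 2 (red), with rows ordered by the log2 fold change of targeted OVX against E4.5. On this scale the targeted OVX columns are mostly red (by library totals their median against E4.5 was −0.04, with all genes at −0.92), the depleted KSOM and second starvation columns mostly blue, and the 2 OVX columns differ; rows such as Mrpl10 and Mrps30 run the other way.

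The 46 members with a bacterial counterpart had median log2 fold changes of 0.68 in targeted OVX, 0.38 in OVX and −0.44 in depleted KSOM against E4.5, and the 31 without had 0.71, 0.35 and −0.22. Of those called in targeted OVX, 4 had a counterpart and 3 had none.

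A list of subunits with other kinds of name held 7, of which 5 are in the table and 2 are older names of members. Dap3, a small subunit GTP-binding protein, rose in depleted KSOM from 98.4 and 84.1 to 207 and 224 CPM (adjusted p = 0.0249), and Chchd1 in targeted OVX from 139 and 90.7 to 445 and 327 CPM (adjusted p = 0.0485). Among 28 assembly and rRNA maturation factors, 2 rose and 1 fell in depleted KSOM (3.29% and 2.21% of all genes), 1 rose in OVX (1.56% of all genes), and none was called in the other comparisons with E4.5; their median was 0.34 in depleted KSOM and 0.02 in targeted OVX, where the 78 members stood at −0.32 and 0.70. Mettl17, a factor of small subunit assembly, stood at 8.52 and 15.8 CPM in E4.5, 43.3 and 47.7 in OVX and 38.7 and 38.4 in depleted KSOM (adjusted p = 0.0299 and 0.0279), but at 10.8, 15.2 and 11.3 in reduced KSOM, below depleted KSOM (adjusted p = 0.0225). In depleted KSOM Mterf3 rose (log2 2.18 ± 0.50, adjusted p = 0.0266) and Rpusd3, a pseudouridine synthase, fell (log2 −2.50 ± 0.61, adjusted p = 0.0338). The calls for Dap3, Chchd1, Mettl17, Mterf3 and Rpusd3 were each lost without any 1 library of the groups compared.

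Among 15 of 16 translation factors found in the table, none passed the test by edgeR in any of the 8 comparisons; at an unadjusted p under 0.05, 2 were higher and 3 lower in OVX (9.82% and 5.93% of all genes) and 4 higher and 0 lower in depleted KSOM (10% and 10.9% of all genes). Of 17 genes of mitochondrial DNA replication, transcription and RNA processing in the table, out of 18 listed, Hsd17b10 rose in all 5 groups against E4.5. It is a subunit of mitochondrial RNase P, which cuts tRNAs out of mitochondrial transcripts, and also a dehydrogenase. It stood at 54.2 and 59.1 CPM in E4.5, 249.0 and 217 in OVX, 148 and 189 in starvation, 153 and 172 in depleted KSOM, 142, 137 and 151 in reduced KSOM and 169.8 and 133 in targeted OVX. Every day 5.5 library lay above both of day 4.5, and the adjusted p was 0.00469, 0.0159, 0.01, 0.0336 and 0.0231 in that order, from comparisons that share the E4.5 libraries. Without E4.5 replicate 1 it was called in none of the 5 (0.0666 to 0.308), nor without replicate 2 (0.0577 to 0.29). By library totals it was called in none either (0.0535 to 0.246). Its partner Trmt10c and Mterf1a, a termination factor, rose in depleted KSOM (log2 2.36 ± 0.55 and 2.92 ± 0.66, adjusted p = 0.0276 and 0.0242), and both kept the call only without depleted KSOM replicate 2 (0.0431 and 0.0388).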

How the data were processed

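RNA from whole mouse blastocysts was amplified as full-length cDNA for ultra-low input (SMART-Seq v4), per the labels' protocols, with no molecular identifiers or strand stated. The deposited table holds an estimated count per gene and library, all whole numbers, and FPKM values made by the authors. The submitters' processing notes name GRCm38, cutadapt 1.9, HISAT2 2.0.4 and StringTie 1.3.4d; the counting tool and annotation are not given in the sources used here. Transcript lengths came from the reference annotation.

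Genes were kept with filterByExpr (21808 of 31528), scaled by TMM and tested with edgeR 4.0.16 quasi-likelihood tests (glmQLFit, glmQLFTest) in 1 fit of 13 libraries with a mean per group, 7 residual degrees of freedom and a common biological coefficient of variation of 0.896. P-values were adjusted by Benjamini-Hochberg over all genes. Scripts were tested on simulated data. Errors of fold changes are approximate standard errors, taken as the size of the log2 fold change over the square root of the test's F statistic. They therefore hold nothing beyond the p-value and the fold change. For log2 CPM a prior count of 2 was used. Alternatives were 2 other scalings, no filter, DESeq2 1.42.0, limma 3.58.1 on log2(FPKM + 1), fits of 2 groups, a replicate block, a transcript length offset, a term for libraries with muscle transcripts and leaving out each library. R 4.3.3 was used, and matplotlib for figures.

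Members and lists were chosen with earlier results of these data known. Named are up to 6 called members per direction and comparison by smallest adjusted p, 23 members with known roles, the 3 highest and 3 lowest by FPKM, the 3 largest and smallest fold changes per comparison, and up to 3 called genes per list.  Replicates differed beyond counting noise in all groups, so none were merged. Counts limit precision little at these depths, but intervals from 2 or 3 libraries are wide.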

Additional observations from a re-analysis of the deposited data

How the results depend on the processing

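Of the settings tried, those below moved a result; the cause was not tested. Counts are called members and medians are members' log2 fold changes, against E4.5 unless another group is named. Median-of-ratios scaling gave a count of 0 in OVX and 0 in reduced KSOM. Library totals gave 3 in targeted OVX, 2 in reduced KSOM, 5 in depleted KSOM, 0 in OVX, 0 in starvation against OVX and 5 in reduced against depleted KSOM, with medians of −0.041 in targeted OVX, −0.43 in reduced KSOM, −0.63 in depleted KSOM, −0.47 in starvation, −0.21 in OVX, −0.22 in starvation against OVX and 0.15 between the media. Without the filter the counts were 9, 4 and 16 in OVX, reduced KSOM and targeted OVX, 12 in starvation against OVX and 16 between the media. The length offset gave 4 in OVX, 2 in starvation, 0 in reduced KSOM, 20 in targeted OVX, 0 in starvation against OVX and 5 between the media, with medians of 0.025 in starvation, −0.0203 in depleted KSOM, 1.05 in targeted OVX, 0.60 in targeted OVX against OVX and −0.0207 between the media. The muscle term gave 0 in OVX, 0 in reduced KSOM, 16 in targeted OVX, 0 in starvation against OVX and 0 between the media, with medians of −0.22 in reduced KSOM, 0.60 in targeted OVX against OVX, −0.33 in starvation against OVX and 0.082 between the media, a large minus small difference of −0.31 in reduced KSOM, and Mrps18c at −0.17 between the media. Fits of only the 2 groups gave 0 in targeted OVX, 9 in reduced KSOM, 8 in depleted KSOM, 0 in starvation, 0 in OVX, 0 in starvation against OVX and 38 between the media. DESeq2 gave 29 in targeted OVX, 7 in reduced KSOM, 17 in depleted KSOM, 14 in starvation, 10 in OVX, 7 in targeted OVX against OVX, 18 in starvation against OVX and 28 between the media. limma on log2(FPKM + 1) gave 8 in reduced KSOM, 11 in depleted KSOM, 10 in starvation, 0 in OVX and 0 in starvation against OVX, with medians of −0.038 in targeted OVX, −0.39 in reduced KSOM, −0.59 in depleted KSOM, −0.46 in starvation, −0.25 in OVX, −0.23 in starvation against OVX and 0.15 between the media. The medians of all genes by limma were −0.20, −0.13, −0.07, −0.04, −0.14, 0.06 and 0 in that order. With the muscle term all genes stood at 0.29 in reduced KSOM, 0.35 between the media and 0 in both comparisons with OVX. With the length offset they stood at 0.07 in starvation and 0.008 in targeted OVX. They stood at 0 in depleted KSOM, in targeted OVX against OVX and between the media.

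With the replicate block the counts were 0 in reduced KSOM, 0 in starvation against OVX and 2 between the media. Over 30 pairs of same-numbered libraries the correlation of deviations from group means ran from −0.06 to 0.07, with 0 over 0.1. In a group of 2 libraries these deviations are equal and opposite. Between such groups both numbers therefore give the same value, and the 30 values are not all separate. With so few libraries a group, these values cannot decide whether the numbers pair the libraries.

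Leaving out each library in turn gave counts of 0 to 6 in targeted OVX, 0 in reduced KSOM, 0 to 1 in depleted KSOM, 0 to 2 in starvation, 0 to 13 in OVX, 0 to 1 in targeted OVX against OVX, 0 to 16 in starvation against OVX and 0 to 2 between the media. Medians ran from 0.63 to 0.83, 0.13 to 0.35, −0.43 to −0.17, −0.48 to −0.017, 0.21 to 0.46, 0.21 to 0.59, −1.02 to −0.33 and 0.44 to 0.72 in that order. Set against the median of all genes, the members changed side in reduced KSOM without E4.5 replicate 2 (0.133 against 0.1885). They also did between the media without depleted KSOM replicate 1 (0.436 against 0.4425) and in starvation without its replicate 2 (−0.017 against −0.133). In every other such fit they stayed on the side reported. The large minus small difference ran from −0.092 to 0.16, −0.12 to 0.13, −0.26 to 0.11, 0.24 to 0.30, 0.05 to 0.18, −0.16 to 0.02, 0.090 to 0.26 and −0.07 to 0.09. With 2 or 3 libraries a group, the number of libraries rather than depth limits these comparisons.

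Each setting also changed how many of all genes it called, in either direction. In targeted OVX, reduced KSOM, depleted KSOM, starvation, OVX, targeted OVX against OVX, starvation against OVX and between the media, in that order, the shares were 2.66%, 1.13%, 5.51%, 2.21%, 2.04%, 0.0367%, 0.225% and 5.79% as reported. They were 2.69%, 1.08%, 5.37%, 2.12%, 1.96%, 0.0321%, 0.243% and 5.44% by median-of-ratios scaling, 3.5%, 2.5%, 4.49%, 1.05%, 1.32%, 0.0321%, 0.128% and 5.77% by library totals, 5.2%, 3.89%, 7.52%, 4.67%, 4.66%, 2.02%, 3.46% and 8.41% without the filter and 5.01%, 0.882%, 6.04%, 2.6%, 2.42%, 0.0367%, 0.0872% and 6.64% with the length offset. The muscle term gave 4.42%, 0.00917%, 6.9%, 3.11%, 1.04%, 0.248%, 0.00917% and 0%, and the block 1.74%, 0.271%, 4.62%, 1.43%, 1.43%, 0.0183%, 0% and 2.2%. Fits of only 2 groups gave 0%, 12.7%, 12.6%, 0%, 0%, 0%, 0% and 24.1%, DESeq2 18.3%, 11.2%, 20.8%, 15.5%, 13.3%, 7.16%, 11.8% and 21.9%, and limma 10.4%, 10.3%, 12.2%, 8.25%, 8.41%, 0.243%, 0.968% and 9.14%. A single member is 1.28% of the 78.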
